A study of Caenorhabditis elegans with 2 samples.

Results

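The genes described here are 10 protein-coding genes of Caenorhabditis elegans that act in the oocyte, the eggshell and the early embryo, of 19973 protein-coding genes in Ensembl release 115: cpg-1, cpg-2, egg-5, rme-2, mex-1, mex-3, mex-5, mex-6, pos-1 and oma-1. They were chosen by function with the joint peak lists of the same experiment already known, so their joint summits are given as a description, without a test. The experiment mapped ATTF-6 on the genome by ChIP-seq in strain RW12231, in which CRISPR inserted tags at attf-6 on chromosome I (allele st12231[attf-6::TY1::EGFP::3xFLAG]). Both samples were whole young adults aged 64 hours, synchronised as starved L1 larvae after bleaching. They form 1 group of 2 biological replicates, both carrying the tagged allele. Chromatin was sheared to between 200 and 800 bp and, per the description in the labels, precipitated with an antibody against GFP, while another label field gives the antibody as attf-6. A named control experiment was not analysed here, so no value below was set against untagged or input chromatin. The sequencing depth is unknown. Because whole animals were used, the cells that carried a signal cannot be told from these lists.

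An oocyte of the worm stores proteins and translationally silent mRNAs that the embryo uses before its own genome is active. Yolk made in the intestine enters the oocyte through a receptor, the eggshell is built in layers right after fertilization, and RNA-binding proteins then set which maternal mRNAs are translated in which blastomere. AT-hook proteins such as ATTF-6 carry short peptide motifs that are known to bind the minor groove of A+T-rich DNA.

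Promoter summits were found at 7 of the 10 genes in the conservative joint list of 2134 regions, in which each region has passed a global irreproducible discovery rate (IDR) of 0.01. A promoter was taken from 1000 bp upstream to 200 bp downstream of the start of the gene record. Across all coding genes 790, or 3.96%, had such a summit, and over the interval from 1000 bp upstream to the gene end the count was again 7 of 10 beside 6.35% of all coding genes. The 7 were cpg-1, cpg-2, egg-5, rme-2, mex-1, mex-5 and pos-1, and the other 3 were mex-3, mex-6 and oma-1. The counts stand beside their background only and were not tested, since the genes were chosen with these summits already known. Signals below are the authors' own values for each region and serve only to describe and rank regions within a list.

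Of the eggshell genes, cpg-1 and cpg-2 encode chitin-binding chondroitin proteoglycans of the inner eggshell. The cpg-1 gene (WBGene00000465) lies on the forward strand of chromosome III at 4489359 to 4491392 in WBcel235, and its summit at 4489122 lay 237 bp upstream. Its joint signal was 215, rank 198 of 2134, with 139 in replicate 1 and 83.9 in replicate 2. This was the strongest promoter summit of the 7 genes apart from egg-5, and it was called in both replicates' own thresholded lists. The nearest other gene start was that of the non-coding C07G2.4, 8707 bp away, and the nearest other coding start was that of C07G2.5, 9916 bp away. The cpg-2 gene (WBGene00015102) lies on the reverse strand of chromosome III at 7102092 to 7103990, with a summit at 7104208, 218 bp upstream. Its joint signal was 107, rank 597, and replicate 1 gave 55.7. In replicate 2 the region stood only in the unthresholded ranked list, with a signal of 37.7 and a global IDR of 0.0632. The cpg-2 promoter was therefore called by 1 replicate of 2. A pseudogene had the nearest other gene start, 2252 bp away, and the nearest other coding start was that of ZK418.11, 3919 bp away.

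The third eggshell-related gene, egg-5 (WBGene00020035; chromosome I, 4168984 to 4171589, reverse strand), encodes an inactive phosphatase-like protein that holds the kinase MBK-2 at the oocyte cortex until the egg is activated. Its summit at 4172188 lay 599 bp upstream with a joint signal of 2754, rank 2 of 2134, and with 1685 in replicate 1 and 982 in replicate 2. It was far above the other 6 genes in every list, but the start of sls-2.4, a spliced leader 2 RNA gene, lay 18 bp from the summit. Because of that neighbour, egg-5 was left out of the sequence, signal and distance summaries below. The sets of all coding genes and all conservative summits beside them still hold summits near short RNA genes. Without such summits, the share of coding genes with a promoter summit was 3.405% in place of 3.96%.

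For yolk uptake, rme-2 (WBGene00004374; chromosome IV, 5470026 to 5473174, forward strand) encodes the yolk receptor of the low-density lipoprotein receptor family. Its summit at 5469977 lay 49 bp upstream, the closest to its gene start of the 7. The joint signal was 137, rank 379, with 70.8 in replicate 1 and 59.9 in replicate 2. Both replicates placed their own summit at the same base, 55 bp upstream. The nearest other gene start was that of a pseudogene, 2584 bp away, and the nearest other coding start, Y52D5A.2, was 5474 bp away.

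Among the maternal RNA-binding proteins, mex-1 and pos-1 encode CCCH zinc-finger proteins needed for the fate of posterior blastomeres, and mex-5 encodes a CCCH protein that spreads anterior-posterior polarity through the zygote's cytoplasm. The mex-1 summit (WBGene00003228; chromosome II, 11968637 to 11972330, forward strand) lay 178 bp upstream at 11968459, with a joint signal of 117, rank 492, and own signals of 68.6 and 54.9 in replicates 1 and 2. The mex-5 summit (WBGene00003230; chromosome IV, 13353723 to 13356104, forward strand) lay 274 bp upstream at 13353449, with a joint signal of 137, rank 377, and own signals of 69.8 and 82.3. The pos-1 summit (WBGene00004078; chromosome V, 8414086 to 8415254, forward strand) lay 253 bp upstream at 8413833, with a joint signal of 103, rank 662, and own signals of 57.3 and 43.8. All 3 were called in both replicates. The mex-5 summit was nearer to the start of rec-8, a meiotic cohesin gene, at 256 bp, so it cannot be assigned to either gene by distance. The other 2 summits were nearer to their own gene than to W03C9.5, 915 bp from the mex-1 summit, and vha-18, 351 bp from the pos-1 summit.

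**Figure D1:**
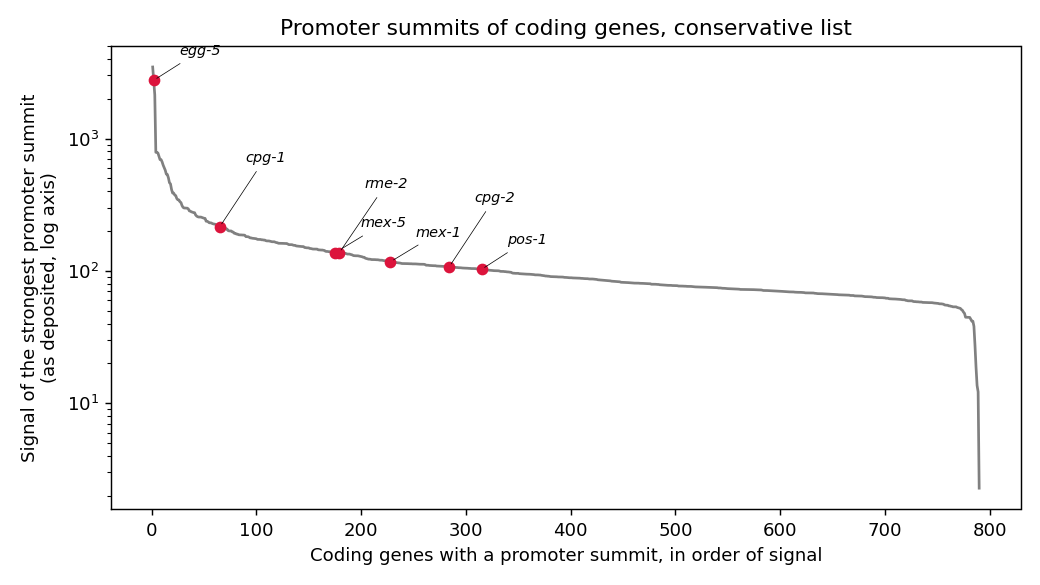
The strongest conservative promoter summit of each of 790 coding genes, in order of its deposited signal (y axis, log scale), with 7 oocyte and eggshell genes as red points. The egg-5 point is second in the order, cpg-1 is at 65, and the other 5 lie between 175 and 315.

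Within the 790 coding genes that had a promoter summit, the 6 genes other than egg-5 ranked from 65 for cpg-1 to 315 for pos-1 by signal. Their median signal was 127, beside 89.2 over the 790, which include genes with a short RNA gene near the summit. Their median summit position was -227.5 bp from the start, negative being upstream, beside -273 bp over the 790. The 6 positions ranged from 274 to 49 bp upstream.

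The 3 genes without a conservative summit were mex-3, mex-6 and oma-1. For mex-6 (WBGene00003231), the paralogue of mex-5, the strongest joint ranked region lay 483 bp upstream, with a signal of 46.6 and a global IDR of 0.0383. It was the gene nearest to the threshold among the 3, and neither replicate called a summit there. For oma-1 (WBGene00003864), whose CCCH protein is needed for oocyte maturation, the strongest ranked region lay 312 bp inside the gene in a coding exon, with a signal of 36.8 and an IDR of 0.286. For mex-3 (WBGene00003229), a KH-domain protein that keeps the pal-1 mRNA silent in the anterior embryo, the strongest lay 1717 bp inside the gene in a coding exon, with a signal of 42.03 and an IDR of 0.372. Within the intervals of the 10 genes, the conservative summit closest to the IDR threshold lay 1681 bp into mex-5 in a coding exon, with a signal of 48.2 and an IDR of 0.00732. The nearest outside it lay 1434 bp into cpg-1, with a signal of 53.3 and an IDR of 0.0306.

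To show the sequence under the signal, 5 of the 6 promoter summits without a short RNA gene nearby are printed here, read along the gene and centred on the summit, from the RefSeq genome of WBcel235. Capitals mark the letters GCGGGA. They are 150 bases each, except that rme-2 is shortened to 124 where its gene starts. The regions are chrIII:4489047-4489196 for cpg-1, chrIV:5469902-5470025 for rme-2, chrII:11968384-11968533 for mex-1, chrIV:13353374-13353523 for mex-5 and chrV:8413758-8413907 for pos-1, all on the forward strand.
cpg-1: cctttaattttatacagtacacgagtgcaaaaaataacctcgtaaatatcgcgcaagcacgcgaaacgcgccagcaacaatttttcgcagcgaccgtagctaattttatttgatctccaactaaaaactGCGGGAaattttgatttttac
rme-2: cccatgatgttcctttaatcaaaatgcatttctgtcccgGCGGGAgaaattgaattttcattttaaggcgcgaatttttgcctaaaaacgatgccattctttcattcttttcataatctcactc
mex-1: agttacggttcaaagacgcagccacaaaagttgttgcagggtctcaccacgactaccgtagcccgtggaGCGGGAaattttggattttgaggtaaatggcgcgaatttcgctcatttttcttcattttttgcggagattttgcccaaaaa
mex-5: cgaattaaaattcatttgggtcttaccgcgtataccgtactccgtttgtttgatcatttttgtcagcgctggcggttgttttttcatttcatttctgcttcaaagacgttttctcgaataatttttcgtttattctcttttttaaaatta
pos-1: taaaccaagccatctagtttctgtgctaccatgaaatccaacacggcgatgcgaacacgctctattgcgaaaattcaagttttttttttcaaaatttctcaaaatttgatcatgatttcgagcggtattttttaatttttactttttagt

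The letters GCGGGA stood in 4 of all 6 windows, those of cpg-1, cpg-2, mex-1 and rme-2, when both strands were searched. In a 150 bp window they stood in 5.76% of all conservative summits, in 10.8% of the strongest promoter summits of coding genes and in 3.40% of windows placed 200 bp upstream of all coding starts. In cpg-1, cpg-2 and mex-1 they continued as GCGGGAAA, which stood in 1.59%, 4.18% and 0.906% of the same 3 sets. In mex-1 they began 6 bp from the summit on the side away from the gene, in rme-2 36 bp on that side, and in cpg-1 54 bp on the side toward the gene. The letters TTTGAA stood in the windows of cpg-2, mex-1, mex-5 and pos-1, 4 of 6, beside 31.6%, 31.5% and 40.8% of those 3 sets. These letters were chosen after the sequences were seen. Within 500 bp upstream of the start, GCGGGA stood at the same 4 of the 10 genes and at 10.3% of all coding genes. The other 6 had none there, mex-3, mex-6 and oma-1 among them.

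The median A+T content in 100 bp around the summit was 61.5% at the 6 genes, from 54% at mex-1 to 70% at cpg-2, beside 53% at the promoter summits of all coding genes, 58% at all conservative summits and 66% in windows 200 bp upstream of all coding starts. Both of these summit sets keep summits near short RNA genes, unlike the 6. The A+T content was above the mean of both flanks, 500 bp away, at 4 of the 6 genes, at 25.4% of the promoter summits of all coding genes and at 56.1% of the windows 200 bp upstream of all coding starts. Along the sequence the mean of the 6 genes was 74.5% at 200 bp on the side away from the gene and 58.8% at 50 bp on that side. It was 61.3% at the summit and 70.3% at 50 bp on the side toward the gene. Within 200 bp of the summit the mean thus dipped, lowest at 50 bp on the side away from the gene. From 250 bp toward the gene it was below the summit value, at 56.7% or less. At 500 bp toward the gene, one of the flanks, it was 52.5%. The mean over all coding genes with a promoter summit dipped as well. It was 66.5% at 150 bp on the side away from the gene, 54.3% at the summit and 63.5% at 100 bp toward the gene. The run AAAAAA stood at 4 of 6, beside 26.5% of those promoter summits and 45.4% of the upstream windows, while AATATT stood at none. Neither TATATA nor the repeat GAGAGA was found at the 6, and all 4 strings were searched on both strands.

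**Figure D2:**
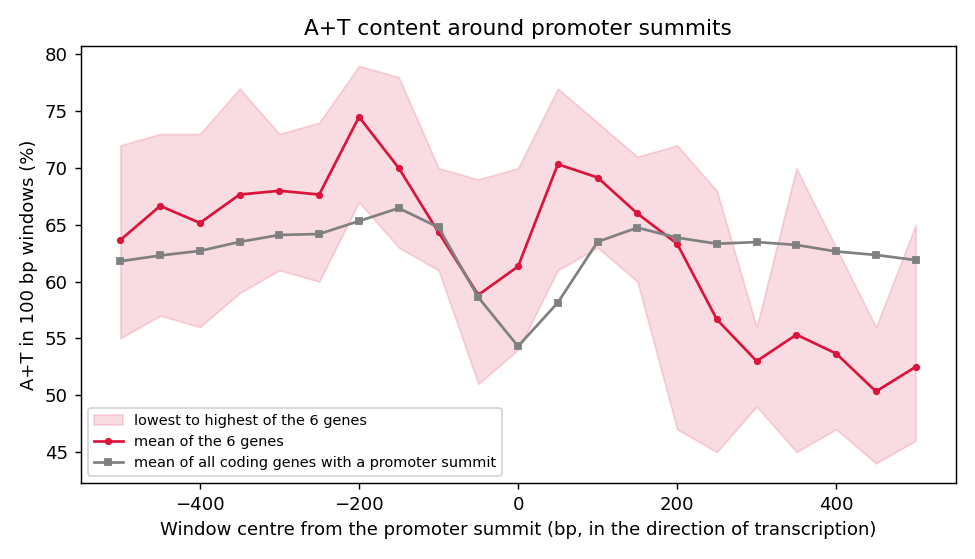
Mean A+T content (y axis, percent) in 100 bp windows against distance from the promoter summit (x axis, bp) for 6 oocyte and eggshell genes in red, with their lowest to highest value shaded, and for all coding genes with a promoter summit in grey. At the summit the mean is 61.3% for the 6 genes and 54.3% for all, and both means dip within 200 bp of it. From 250 bp toward the gene the 6-gene mean is again lower, at 56.7% or less. The 6-gene mean is 74.5% at 200 bp on the side away from the gene, 58.8% at 50 bp on that side and 70.3% at 50 bp toward the gene.

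Summits also stood at the far end of the same genes. Within 200 bp of the gene end, on either side, 6 of the 10 genes had a conservative summit, cpg-1, cpg-2, egg-5, rme-2, mex-5 and pos-1, beside 2.61% of all coding genes. All 6 of those end summits lay in no promoter of another coding gene, a combination found at 1.67% of coding genes. This pattern was noticed in the joint values before it was counted, so the joint counts are a description. In replicate 1's own list 5 of the 10 genes had an end summit, beside 1.58% of coding genes, and in replicate 2's own list 5 of the 10, beside 1.64%. In both lists the 5 were cpg-1, cpg-2, rme-2, mex-5 and pos-1. At mex-1 a joint ranked region lay 188 bp past the end, with a signal of 45.5. Its global IDR of 0.0112 was just outside the threshold of 0.01, and neither replicate's own thresholded list had an end summit there. The replicates' own lists are not independent of the joint list, which was made from both.

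The pos-1 end summit lay 14 bp past the gene end, with a joint signal of 173, 82.2 in replicate 1 and 91.2 in replicate 2. The cpg-1 end summit lay 19 bp past the end, with 121 jointly, 73.8 in replicate 1 and 66.5 in replicate 2. The rme-2 end summit lay 124 bp past the end, with 149 jointly, 75.1 in replicate 1 and 75.7 in replicate 2. All 3 joint summits lay outside the gene, and each replicate called a region there in its own list. Replicate 1's own summit lay inside the gene, in the 3′ UTR, 19 bp before the end at cpg-1 and 55 bp before it at pos-1. The other own summits at these 3 genes lay past the end, from 3 bp at cpg-1 to 199 bp at rme-2, both in replicate 2. The cpg-2 end summit lay 136 bp past the end, with 202 jointly, 93.2 in replicate 1 and 110 in replicate 2, and fell inside the convergent gene ZK418.11, whose end was 93 bp away. The mex-5 end summit lay 92 bp before the end in the 3′ UTR, with 107 jointly, 56.0 in replicate 1 and 54.0 in replicate 2, and the end of the convergent W02A2.8 was 101 bp away. The replicates' own mex-5 summits lay 23 bp before the end in replicate 1 and 22 bp past it in replicate 2. The egg-5 end summit, 61 bp past the end with 77.8 jointly, was weaker and was called by neither replicate alone, where its signals were 45.1 and 40.0. At mex-5 a second joint summit, 113 bp past the end with 39.5, belongs to an overlapping region, and the same replicate regions stand for both.

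At cpg-2, pos-1 and rme-2 the joint signal at the end was above that at the promoter: 202 against 107, 173 against 103 and 149 against 137. At cpg-1, egg-5 and mex-5 the promoter was the higher. A separate promoter summit and end summit were found together at 130 coding genes, or 0.651%, which is 16.5% of those with a promoter summit, and 6 of the 130 were oocyte and eggshell genes of this list. The 6 include egg-5, whose promoter summit lies beside sls-2.4 and whose end summit was called by neither replicate alone. Chromosome IV, where rme-2 and mex-5 lie, held 62 of the 130 among its 3281 coding genes, more than each other chromosome. Chromosomes I, II, III and V held 12 to 20 each, among 2640 to 4994 coding genes, and chromosome X held 0 among 2731. Replicate 1's own list had such pairs at 66 coding genes, 5 of them from this list, and replicate 2's at 70, with 4.

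**Figure D3:**
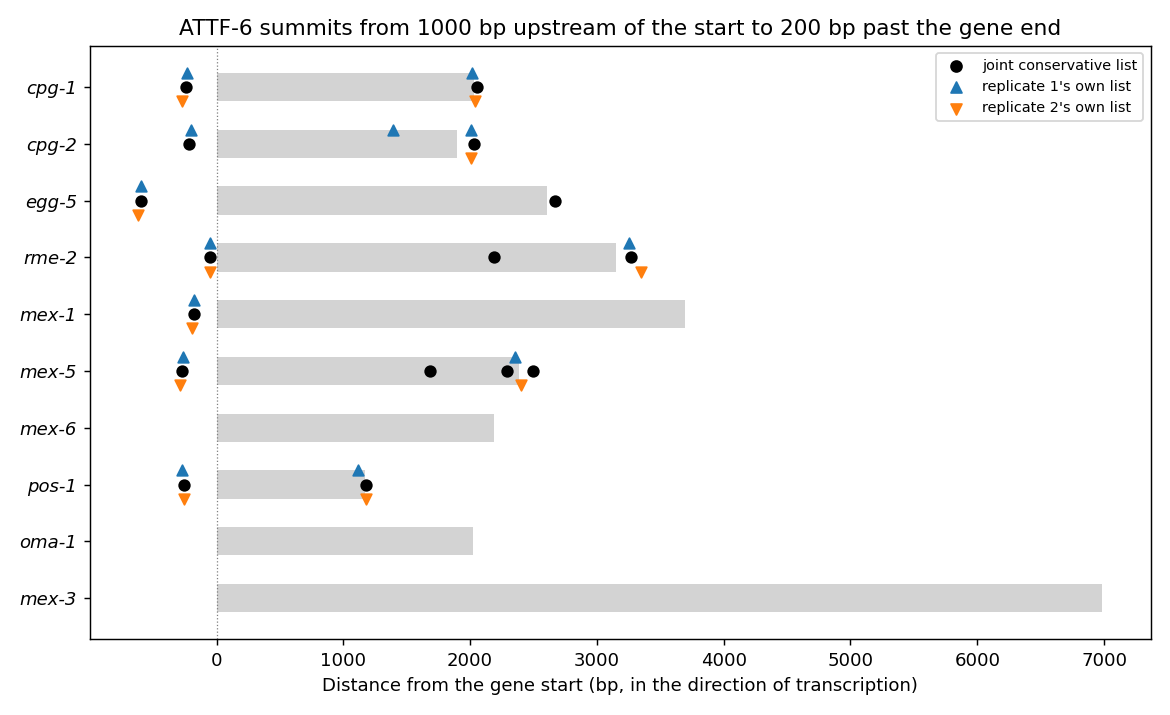
Summits along the 10 genes, by distance from the gene start in the direction of transcription (x axis, bp), with gene bodies as grey bars, joint conservative summits as black circles and each replicate's own thresholded summits as triangles. Summits cluster just upstream of the start and at the end in cpg-1, cpg-2, rme-2, mex-5 and pos-1, and mex-6, oma-1 and mex-3 have none.

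**Figure D4:**
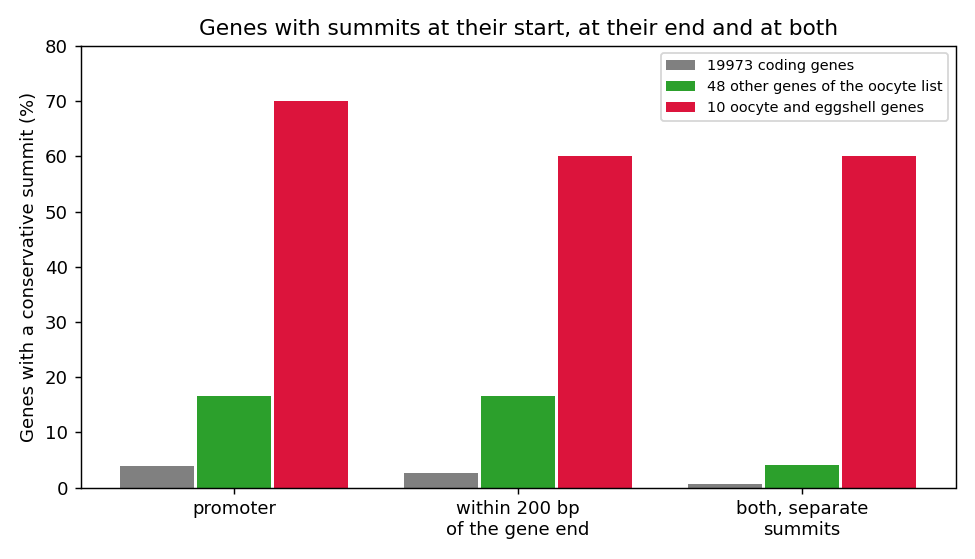
Percent of genes (y axis, bars from 0) with a conservative summit in the promoter, within 200 bp of the gene end, or at both, for all coding genes, for 48 other genes of a wider oocyte list and for the 10 genes. The 48 other genes lie at 16.7% for the promoter and 16.7% for the end, beside 3.96% and 2.61% of all coding genes. The 10 genes, which were chosen with these results known, are higher in each group of bars.

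Between replicates the promoter summits of the 7 genes differed by 0 to 40 bp. A region of the conservative list in the gene interval overlapped the own lists of both replicates at 6 of the 10 genes, beside 2.58% of all coding genes, and cpg-2 was the one of the 7 that did not. Replicate 1 called a summit in the interval of 7 of the 10 genes, beside 4.09% of all coding genes. Replicate 2 called one in 6, beside 3.59%. The promoter order of the other 6 genes changed between lists: mex-5 was above mex-1 and rme-2 in replicate 2 by own signal, and close to both in replicate 1.

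**Figure D5:**
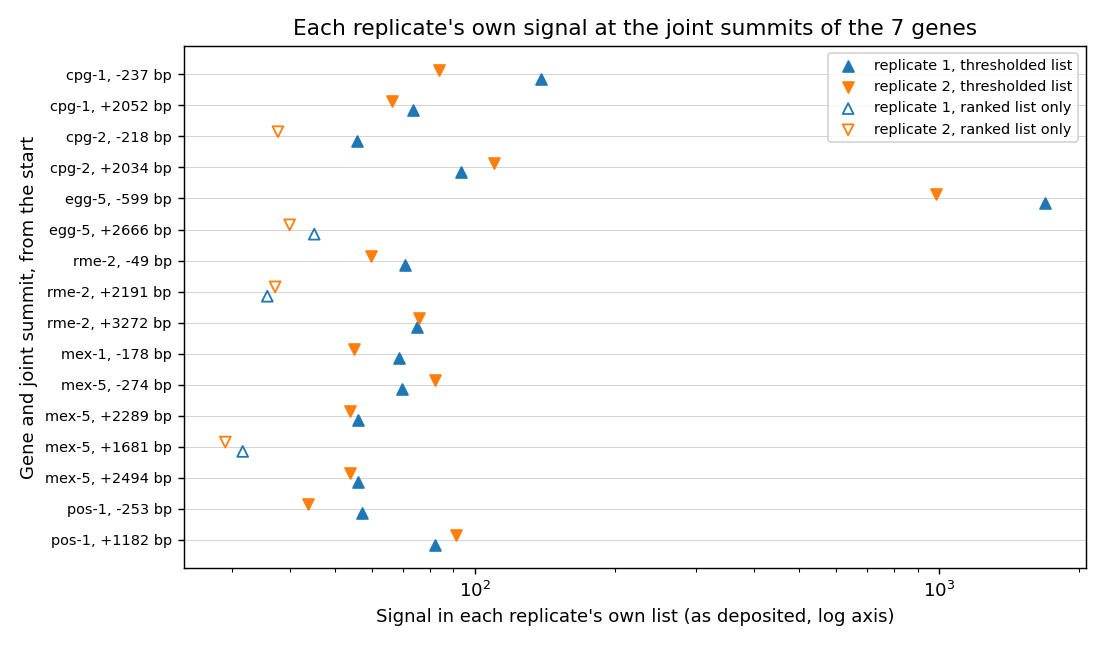
Deposited signal (x axis, log scale) in replicate 1 and replicate 2 at each joint summit of the 7 genes (y axis, with its distance from the start), filled where a replicate's own thresholded list holds the region and open where only its ranked list does. All promoter points are filled except that of cpg-2 in replicate 2, and the mex-5 rows at 2289 and 2494 bp show the same replicate regions.

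A wider list of 58 genes of oocyte and early-embryo biology, written with these results known, holds the 10 genes and 48 others. Of the 48, 8 had a promoter summit (16.7%) and 8 an end summit (16.7%), 2 of them at both (4.17%). Over all coding genes these shares were 3.96% for the promoter, 2.61% for the end and 0.651% for both. By role, promoter summits stood at 3 of 14 other eggshell and egg activation genes, 2 of 10 other maternal RNA-binding genes, 0 of 8 other yolk genes, 2 of 9 polarity genes and 1 of 7 maturation kinases and cyclins. Of the yolk genes 5, vit-1 to vit-5, lie on chromosome X, and no gene of another role does. The 8 genes with a promoter summit were chs-1, egg-1, egg-4, puf-3, puf-11, par-3, par-5 and cyb-1. The strongest was that of puf-3, an RNA-binding PUF protein, 226 bp upstream with a joint signal of 352, and puf-3 also had an end summit of 251, 82 bp past its end. The chitin synthase gene chs-1 had a summit 58 bp upstream with a signal of 101, called by replicate 1 only. Those of egg-1, 142 bp upstream with 60.4, and cyb-1, 176 bp inside the gene with 44.6, were called by neither replicate alone. The polarity gene par-3 had a summit 500 bp upstream with 105, and both replicates called a summit in its promoter. The par-5 promoter held 2 joint summits. The stronger lay 680 bp upstream with 77.5, nearer to the start of M117.3, at 398 bp. Both replicates called a summit somewhere in the par-5 promoter. For all 8 genes, a replicate's call means any own summit in the promoter. The puf-11 summit, 241 bp upstream with 121, was called by replicate 2 only, and a pseudogene start lay 144 bp from it. Both puf-3 and puf-11 had the pair of start and end summits.

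Of the closest relatives, cpg-3 had no conservative summit, unlike cpg-1 and cpg-2. The strongest joint ranked region within the cpg-3 promoter lay 128 bp into the gene, with a signal of 32.7. Outside the wider list, cpg-4 had a conservative promoter summit 60 bp upstream with a signal of 64.3. In the pair mex-5 and mex-6, mex-5 had summits at the start and the end and mex-6 had neither. The egg-4 gene, the relative of egg-5, had a promoter summit 234 bp upstream with 98.1, called by replicate 2 only, and no short RNA gene beside it. The oma-1 relative oma-2 had an end summit 131 bp past its end with 82.9, in the promoter of vars-1, and only an unthresholded promoter region, with an IDR of 0.0502.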

How the data were processed

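ATTF-6 ChIP-seq peak lists from 2 biological replicates of 1 group of whole young adults were used. Per the labels, the lists are on ce11, which matched the WBcel235 reference in chromosome lengths. For both replicates, aligner and caller are not given in these sources. The deposited signal, the deposited score and the deposited −log10 global IDR values are the authors' per-region values. The deposited score was not used for results. The signal's scale is not stated, the depth is unknown, and no control list was analysed. The joint lists carry 16 unlabelled per-replicate columns, which were not used.

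Genes, summits (counted from 1) and sequences were joined with Python 3.11.15, numpy 2.4.6 and pandas 2.3.3, on Ensembl release 115, and the scripts were tested on simulated data. The members and the wider list were chosen with earlier results of these data known, so no p-value is given. All 10 genes, their neighbours at each summit, wider-list genes with a promoter summit and paralogues were named by rule. Further genes with an end summit or a summit inside the gene, and cpg-4, were named after their values were seen. Gene ends and the letters GCGGGA, GCGGGAAA and TTTGAA were added after seeing the data. The sequence window of cpg-2 is not reported here.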

Additional observations from a re-analysis of the deposited data

How the results depend on the processing

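The count of the 10 genes with a summit in the gene interval or promoter was 6 or 7 under every alternative tried. It was 6 with only 500 bp upstream and without summits near short RNA genes, where egg-5 is lost, and 6 of 10 promoters when each summit was given to its nearest coding start, where mex-5 is lost to rec-8. Leaving out a replicate gave 6 to 7. The share of all coding genes moved more: at a global IDR of 0.001 the interval share was 3.27% and the promoter share 2.07%, and without a replicate they ran from 3.59% to 4.09% and from 2.28% to 2.63%. Counting region overlap in place of the summit moved the median distance of the strongest summit in the interval, over the 7 genes with egg-5 included, from -237 to -178 bp, because the end regions of cpg-2 and pos-1 then reach into the gene interval and are the stronger. Without a replicate that median ran from -261.5 bp, over 6 genes since cpg-2 has no summit in its interval there, to -198 bp, where the strongest summit of pos-1 is the one at its gene end. The joint region overlapped both replicates' own lists at 6 of 10 genes, and at 4 when replicate regions needed an IDR of 0.001. Of the wider list 15 genes had a promoter summit, 10 at an IDR of 0.001, and 11 to 12 without a replicate. With depth unknown, no interval for counting error can be given.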

Other observations

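Summits inside the transcribed part of these genes were few. In rme-2 a joint summit lay 2191 bp from the start in a coding exon, with a signal of 72.1, rank 1349 of 2134, and neither replicate's own thresholded list held it. In cpg-2 replicate 1 alone called a summit 1395 bp from the start, also in a coding exon, with a signal of 48.3. Of the wider oocyte list, vit-6, a yolk protein gene, had a conservative summit 271 bp from its start with a signal of 65.9. In par-5 one lay 1136 bp from the start in the 3′ UTR, with 91.7, above its promoter summit. Weaker ones lay in a coding exon of cbd-1, with 51.2, and in the 3′ UTR of puf-3, with 42.5. The kinase gene mbk-2, whose product EGG-5 holds at the cortex, had 2 summits inside the gene, the stronger in its 3′ UTR with a signal of 59.6. Besides puf-3, puf-11 and oma-2, 5 other genes of the wider list had an end summit. That of cbd-1, an eggshell protein, lay 39 bp past the end with 157, and that of cyb-3, a cyclin, 31 bp past the end with 112. For spn-4, an RNA-binding protein, the end summit had a signal of 94.3. For puf-5, with 109.5, and cdk-1, with 70.5, it lay in the promoter of another coding gene, F54C9.9 and T05G5.4. None of these was tested.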
